A study of Mus musculus with 5 samples.

Results

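The T cells of 2 libraries of one single-cell experiment were compared. They are the barcodes with suffix 3 (library 3) and suffix 2 (library 2) in one of the 2 aggregated matrices of the series, matrix G. A barcode was taken as a T cell when it held at least 500 unique molecular identifiers (UMIs), at least 300 genes, at most 10% mitochondrial UMIs and at least 2 of Cd3d, Cd3e, Cd3g, Lck and Lat, genes of the T cell receptor complex and its first signaling steps. This gave 3033 cells of 3549 barcodes in library 2 and 6285 of 7136 in library 3. Together these are 9318 of the 22472 T cells that the same rule finds among the 25623 barcodes of the series.

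The study profiled mouse OT-II CD4 T cells, whose transgenic receptor recognises a peptide of ovalbumin (OVA) on MHC class II. In every sample they were isolated by negative selection, and their source per the labels was spleen of a naive mouse of that strain. Cultures were T cells alone without treatment, or T cells kept overnight with apCAFs, antigen-presenting cancer-associated fibroblasts sorted by flow cytometry from dissociated mouse pancreatic tumors. The tumor clones were sKPC and rKPC, and each coculture received DMSO, the vehicle, or OVA. Each of the 5 groups is 1 library made with the 10x Genomics 5' v2 chemistry, so no difference here has a replicate check, no test was run and no p-value is given. No label ties a barcode suffix to a sample, and libraries 1, 2 and 3 of matrix G are treated as unassigned. The labels list 2 samples for matrix G and 3 for matrix H, whereas the barcodes carry 3 suffixes in G and 2 in H. If the 2 matrix names were exchanged against the labels, library 1 would be the sKPC coculture with OVA, library 2 the rKPC coculture with DMSO and library 3 the rKPC coculture with OVA. That mapping is inferred, so the text names libraries and not treatments.

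A CD4 T cell whose receptor binds its peptide switches on, within hours, transcription factors of the Nr4a, Egr, Irf and NF-kB families, then the interleukin-2 receptor, costimulatory receptors, cytokines and the uptake of amino acids that growth needs. Interferon gamma acts through its own receptor and induces guanylate-binding proteins (GBPs) and immunity-related GTPases (IRGs), which attack the membranes around intracellular microbes. The signal from its receptor reaches genes through GAS elements, and factors of the IRF family bind interferon-stimulated response elements (ISRE), while NF-kB binds its own sites.

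Promoters are shown for 4 genes from these 2 programs that were at least 2-fold higher in library 3 than in library 2. Il2ra encodes the alpha chain of the interleukin-2 receptor, Gbp2 and Gbp5 encode GBPs, and Igtp encodes an IRG. Each sequence runs 5′ to 3′ from 250 bases before to 50 bases after a RefSeq transcription start on the plus strand of GRCm38.p6. The positions are chr2:11642542-11642841 for Il2ra, chr3:142620413-142620712 for Gbp2, chr3:142496684-142496983 for Gbp5 and chr11:58199306-58199605 for Igtp. Capitals mark any match, on either strand, to the ISRE (GAAA, any 2 bases, GAAA), the GAS element TTCNNNGAA, the NF-kB site, the CArG box, CRE (TGACGTCA), the E-box CACGTG or AP-1 (TGANTCA).
Il2ra: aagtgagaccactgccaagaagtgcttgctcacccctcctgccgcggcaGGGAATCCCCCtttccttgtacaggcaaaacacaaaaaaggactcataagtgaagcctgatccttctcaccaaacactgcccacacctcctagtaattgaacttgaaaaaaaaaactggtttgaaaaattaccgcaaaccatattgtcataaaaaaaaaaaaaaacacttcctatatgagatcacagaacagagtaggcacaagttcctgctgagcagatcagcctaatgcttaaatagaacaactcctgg
Gbp2: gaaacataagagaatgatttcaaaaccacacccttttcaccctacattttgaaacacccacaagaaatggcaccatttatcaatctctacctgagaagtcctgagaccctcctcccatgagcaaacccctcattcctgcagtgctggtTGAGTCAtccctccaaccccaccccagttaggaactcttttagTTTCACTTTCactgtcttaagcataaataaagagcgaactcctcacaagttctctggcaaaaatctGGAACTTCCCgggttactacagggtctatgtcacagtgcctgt
Gbp5: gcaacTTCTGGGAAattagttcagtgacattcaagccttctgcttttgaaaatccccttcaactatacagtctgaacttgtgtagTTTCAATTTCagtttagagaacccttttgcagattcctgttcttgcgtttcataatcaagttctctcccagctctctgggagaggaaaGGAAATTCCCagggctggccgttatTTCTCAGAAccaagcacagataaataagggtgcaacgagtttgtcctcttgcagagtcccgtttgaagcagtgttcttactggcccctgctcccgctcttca
Igtp: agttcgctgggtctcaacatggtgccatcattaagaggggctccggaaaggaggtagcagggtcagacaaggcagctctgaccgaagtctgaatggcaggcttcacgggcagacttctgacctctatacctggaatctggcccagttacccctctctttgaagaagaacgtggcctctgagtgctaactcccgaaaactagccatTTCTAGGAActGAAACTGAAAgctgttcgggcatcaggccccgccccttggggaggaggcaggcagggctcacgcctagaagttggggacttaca
The capitals in Il2ra are 2 overlapping NF-kB matches. In Gbp2 they are, in order, AP-1, ISRE and NF-kB, in Gbp5 GAS, ISRE, NF-kB and GAS, and in Igtp GAS and ISRE. Of 12 RefSeq promoters of 11 GBP and IRG genes, 10 (83.3%) held the ISRE and 6 the GAS element, against 3.44% and 8.30% of all 32851 promoters of this length. Of 22 promoters of 16 genes of the early T cell receptor list, 6 (27.3%) held an NF-kB site, against 8.46% of all. The share was 10.3% for promoters of all counted genes and 15.2% for those of genes at least 2-fold higher in library 3. Of 27 promoters of 16 genes of the naive T cell list, 0 held the ISRE and 2 (7.41%) an NF-kB site. A match is only a description of the letters in this window.

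Cell identity was checked with genes that the rule did not use. Trac, the constant segment of the receptor alpha chain, had a UMI in 100% of T cells in library 2 and 99.8% in library 3. Cd4 was seen in 68.9% and 60.8% of cells. Of the CD8 chains, Cd8a was seen in 0.165% and 0.159% and Cd8b1 in 5.70% and 5.06%. Foxp3, the factor of regulatory T cells, was seen in 1.71% and 2.13%. Trdc, the delta constant segment, had a UMI in 19.7% and 18.7%, so the label CD4 T cell was not borne out by a Cd4 UMI in every cell. Among barcodes that passed the depth filters, 138 and 318 members held exactly 2 of the 5 markers (median 1942.5 and 3905 UMIs) and 148 and 329 barcodes just outside held 1 (median 1150 and 1267 UMIs).

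Depth was alike in the 2 libraries, with a median of 7957 UMIs per T cell in library 2 and 8557 in library 3, and 25439062 and 59047182 UMIs in all T cells. Library 1 had 5138 T cells and a median of 8812 UMIs. Libraries 2 and 3 shared 6 barcode sequences. A few T cell barcodes carried RNA of other cells. There were 2 barcodes over 50000 UMIs in library 2, with 278399 and 186012 UMIs, and 13 in library 3. Barcodes with at least 3 marker genes or at least 50 marker UMIs of another type, called mixed barcodes here, numbered 51 (1.68%) and 134 (2.13%). NK cell, CD8 and endothelial markers were not used for this. Counts and the values they touch are therefore also given without the mixed barcodes, a setting that also left out any barcode over 50000 UMIs. The doublet caller Scrublet marked 35 of 15873 scored barcodes in matrix G and has not worked on it.

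A gene's level is its UMI sum over the T cells of a library, given as CPM (the share of all UMIs of those cells, scaled to 1000000). Ratios are log2 of library 3 over library 2 with 0.5 added to each gene's count. Intervals are exact 95% intervals that cover counting error alone, leave out variation between cultures, animals and cells, and treat UMIs as independent. Of 12816 genes with at least 100 UMIs over both libraries, 358 (2.79%) were at least 2-fold higher in library 3 and 222 (1.73%) at least 2-fold lower, 4.53% in either direction. The median ratio over these genes was 0.005, and the middle 50% of genes lay between -0.16 and 0.18, so most genes were at about the same level in both libraries. Without the mixed barcodes, 319 of 12364 genes (2.58%) were higher and 34 (0.275%) lower, and 259 of the 358 higher but 29 of the 222 lower genes kept their call. The plot of ratios against level shows this asymmetry.

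**Figure D1:**
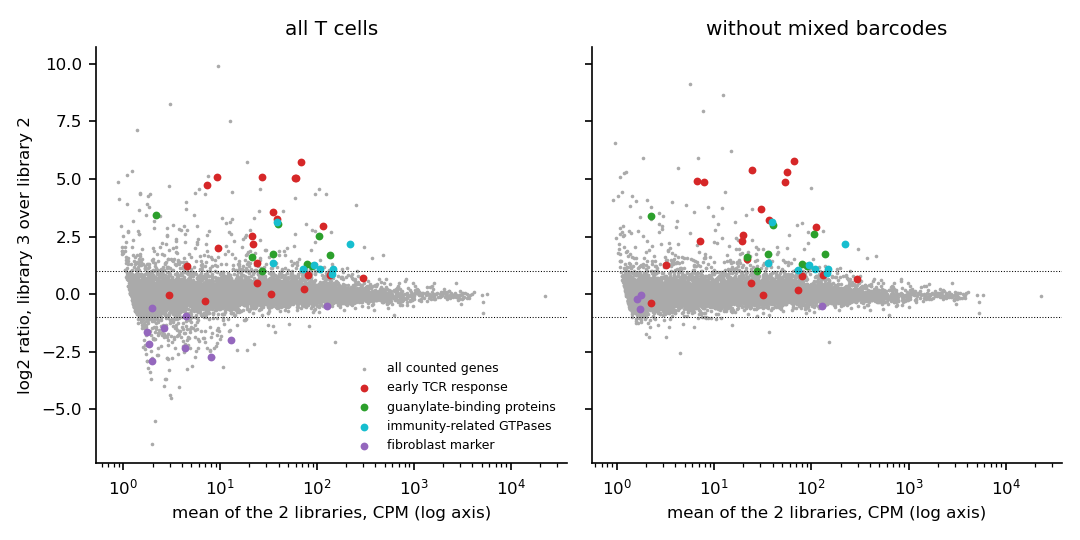
Log2 ratio of library 3 over library 2 (vertical axis) against the mean CPM of the 2 libraries (log axis), for all T cells (left) and without mixed barcodes (right); each point is a gene with at least 100 UMIs and dotted lines mark 2-fold. Early T cell receptor genes, GBPs and IRGs lie mostly above the upper line in both panels. Of the 222 genes at least 2-fold lower on the left, 151 are missing from the right panel, where 34 genes are at least 2-fold lower. Of the 10 fibroblast markers on the left, 7 are at least 2-fold lower, and of the 4 on the right, 0 are.

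The first group of genes that differed were those of the immediate response to the T cell receptor. The list of 22 such genes, all of them counted, had 14 at least 2-fold higher in library 3 and 0 lower, with a median ratio of 2.09. Its summed level was 1772 CPM in library 1, 602 CPM in library 2 and 1711 CPM in library 3, a log2 ratio of 1.51 (1.48 to 1.53), or 1.47 without the mixed barcodes. Of the 14 higher genes, 8 were also at least 4 times higher in barcodes outside the T cells than inside them in one of the libraries, a mark of RNA that can reach T cell barcodes from elsewhere. Its part in the result was not tested.

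Irf4, a transcription factor whose level follows the strength of the receptor signal, stood at 157, 2.44 and 133 CPM in libraries 1, 2 and 3. Library 2 was thus the low one, 54.1-fold under library 3 (log2 5.76, 5.41 to 6.15). The orphan nuclear receptor Nr4a1 (Nur77) was at 132, 3.54 and 117 CPM, a log2 ratio of 5.04 (4.74 to 5.36). Its paralogs followed the same order, Nr4a3 with 118, 3.46 and 115 CPM (log2 5.05) and Nr4a2 with 61.4, 1.49 and 52.2 CPM (log2 5.11). The zinc finger factors Egr1, Egr2 and Egr3, which the calcium and MAP kinase branches of the receptor signal induce, were also low in library 2 alone. Egr1 was at 70.1, 5.50 and 64.8 CPM (log2 3.55), Egr2 at 16.7, 0.511 and 14.2 CPM (log2 4.75), and Egr3 at 18.5, 0.511 and 18.2 CPM (log2 5.10). Egr2 and Egr3 rested on 13 UMIs each in library 2.

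Other members with a higher level were Gadd45b, a stress-response adaptor (69.2, 7.23 and 70.1 CPM, log2 3.27), and Myc, the factor that drives growth (40.6, 6.25 and 35.9 CPM, log2 2.52). Bhlhe40, a factor of cytokine-producing helper cells, had a log2 ratio of 2.16, Irf8 of 2.01, and the AP-1 subunits Fosl2 and Fos of 1.35 and 1.24. The AP-1 family did not move as a whole. Junb had a log2 ratio of 0.84, Batf of 0.50, Jun of 0.01 and Fosb of -0.02, all inside 2-fold. Ier3 (-0.32) was the one member with a ratio clearly under 0, and 66.0% of its library 2 UMIs came from 1 cell.

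**Figure D2:**
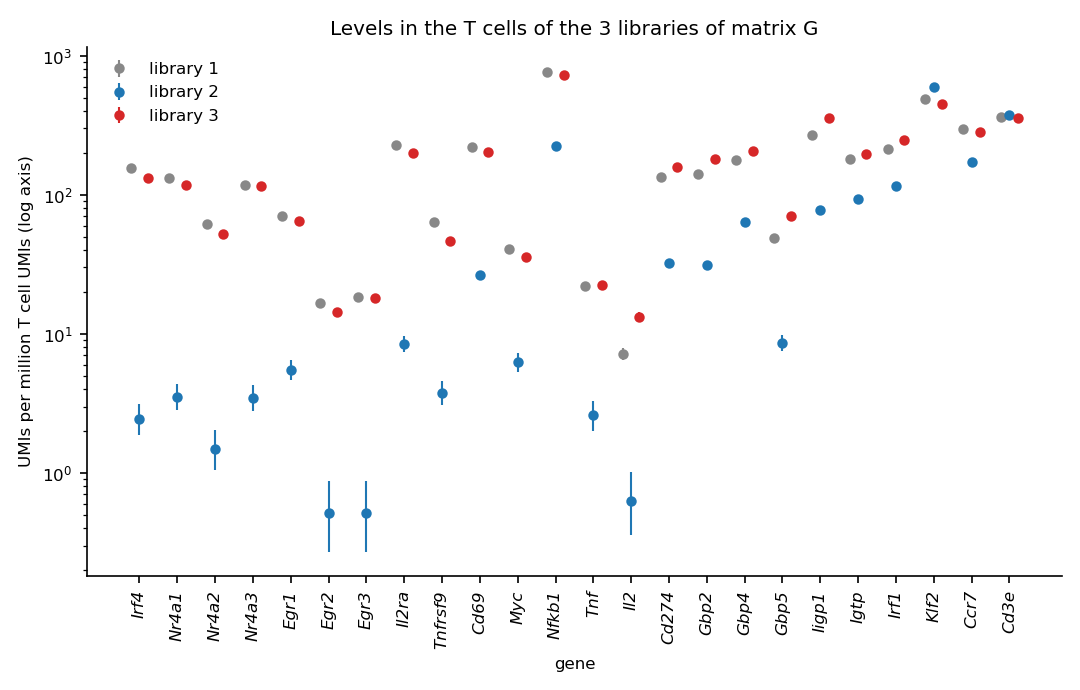
Level of 24 genes in the T cells of libraries 1, 2 and 3, in CPM on a log axis, with exact 95% Poisson bars that cover counting error only. Library 2 is the lowest of the 3 for receptor-response and interferon genes, from 2.44 CPM for Irf4 against 157 and 133, whereas Klf2 is highest there and Cd3e, one of the genes by which the cells were chosen, is nearly level.

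Receptors that T cells display after activation showed the same order. Il2ra, whose promoter is printed above, was at 229, 8.45 and 199.7 CPM, a log2 ratio of 4.56 (4.37 to 4.76). Cd69, which retains activated cells in lymphoid tissue, was at 221, 26.4 and 204 CPM (log2 2.95, 2.84 to 3.06). Tnfrsf9, which encodes the costimulatory receptor 4-1BB, was at 63.6, 3.77 and 46.4 CPM (log2 3.61, 3.32 to 3.93). Of 15 counted costimulation and activation receptors, 7 were at least 2-fold higher and 0 lower, with a median ratio of 0.88. Besides Tnfrsf9 these were Slamf1 (log2 2.10), Cd200 (1.57), Tnfrsf4, which encodes OX40 (1.35), Cd5, a brake on receptor signaling (1.17), the transferrin receptor Tfrc (1.15) and the amino acid transporter chain Slc3a2 (1.09). Cd40lg, the ligand that licenses antigen-presenting cells, had the opposite sign, with 101, 138 and 96.0 CPM (log2 -0.53, inside 2-fold). Cd44 had a log2 ratio of -0.44, and of -0.15 without the mixed barcodes.

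The ligands of PD-1 differed more than the receptor. Pdcd1lg2, which encodes PD-L2, was at 24.8, 1.93 and 19.1 CPM (log2 3.30), and Cd274, which encodes PD-L1, at 135, 32.5 and 158 CPM (log2 2.28, 2.18 to 2.38). Pdcd1 itself and Ctla4 had log2 ratios of 0.42 and 0.30, and of 10 counted inhibitory receptors and ligands the 2 ligands were the members past 2-fold. The mark of high levels in barcodes outside the T cells was on 1 of the 2 ligands.

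How many cells carried the response was counted with 8 of these genes (Nr4a1, Nr4a2, Nr4a3, Egr1, Egr2, Egr3, Irf4 and Il2ra) after every cell was thinned to 1500 UMIs, which left out 65 cells of library 2 and 111 of library 3. Of the 8 genes, 4 were also at least 4 times higher in barcodes outside the T cells than inside them in at least 1 library. At least 1 of the 8 was detected in 75 of 2968 cells of library 2 (2.53%, 1.99 to 3.16%) and 1144 of 6174 cells of library 3 (18.5%, 17.6 to 19.5%). Without thinning the shares were 9.36% and 34.3%. At least 3 of the 8 were detected in 2 cells of library 2 (0.0674%) and in 428 cells of library 3 (6.93%, 6.31 to 7.59%), so cells with several of these genes together were almost confined to library 3 and library 1, where they were 8.15%.

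Barcodes of red blood cells, which should lack these genes, served as a rough background. They were thinned alike and held at least 3 erythroid marker genes and under 2 T cell markers. The gene and mitochondrial filters of the T cells were not applied to them. In library 3, 1 of 34 such barcodes held at least 1 of the 8 genes (2.94%, 0.0744 to 15.3%, median 8309.5 UMIs against 8605.5 in the T cells), and in library 2, 0 of 35. At least 3 of the 8 were seen in 0 of 105 over the 3 libraries. Of the 19 red cell barcodes over the 3 libraries that also passed the gene and mitochondrial filters, 3 held at least 1 of the 8 (15.8%, 3.38 to 39.6%). That interval includes the 18.5% of library 3 T cells. How many T cells held these genes as RNA from elsewhere was not tested. Among barcodes with B cell markers, 6 of 21 held at least 1 of the 8, though B cells can express several of these genes.

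**Figure D3:**
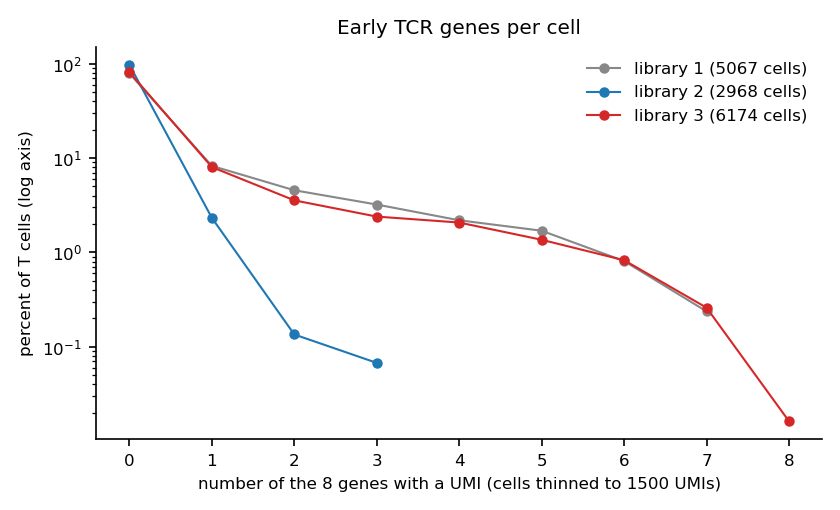
Percent of T cells (log axis) by the number of the 8 receptor-response genes with a UMI, each cell thinned to 1500 UMIs; 1 line per library. Libraries 1 and 3 run together out to 7 genes, while library 2 ends at 3 genes in 0.0674% of its cells.

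The NF-kB factors, which the receptor and costimulatory receptors activate, had a ratio above 0 in every counted member. Of 14 genes 6 passed 2-fold, with a median of 0.82 and summed levels of 2131, 998 and 2123 CPM. Nfkb1, the p105/p50 subunit, was at 768, 224 and 732 CPM (log2 1.71, 1.67 to 1.75). Nfkbid and Bcl3, nuclear partners of NF-kB, had ratios of 1.89 and 1.49, and the subunits Nfkb2, Relb and Rel of 1.34, 1.30 and 1.29. The inhibitor Tnfaip3 (A20) was nearly level, with 90.7, 82.5 and 96.5 CPM.

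Feedback inhibitors of signaling were a mixed group, with 5 of 22 counted members past 2-fold and a median of 0.49. Spry1, which restrains MAP kinase signaling, was at 31.4, 1.14 and 25.3 CPM (log2 4.45, 3.94 to 5.05). Cish, a STAT5 target that dampens cytokine and receptor signals, was at 19.2, 2.36 and 20.4 CPM (log2 3.10, 2.74 to 3.51). Izumo1r, the folate receptor 4 of anergic and regulatory cells, and the phosphatase genes Dusp5 and Dusp2 had ratios of 1.72, 1.65 and 1.01.

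Cytokine genes were carried by few cells. Of 11 counted of 18 listed, 8 were past 2-fold (7 without the mixed barcodes) with a median of 1.52. Of those 8, 2 had the mark of high levels in barcodes outside the T cells. Il2, the T cell growth factor, was at 7.17, 0.629 and 13.3 CPM (log2 4.36, 3.69 to 5.22, and 3.85 without the mixed barcodes). Its UMIs were concentrated, since the top 1% of cells held 95.3% of them in library 3. Tnf was at 22.2, 2.59 and 22.6 CPM (log2 3.11) and lymphotoxin alpha, Lta, at 24.9, 3.62 and 22.3 CPM (log2 2.62). Csf2, which encodes GM-CSF, had 3 UMIs in library 2 and 167 in library 3, a log2 ratio of 4.37 (3.01 to 6.88). Ifng, in contrast, was scarce everywhere, with 1.14, 1.14 and 1.63 CPM and 29 and 96 UMIs in libraries 2 and 3 (log2 0.49, -0.10 to 1.16), so a difference in the interferon gamma transcript itself was not detectable at this depth.

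Among 7 counted chemokines of 8 listed, 5 were past 2-fold (4 of 5 without the mixed barcodes). Of the 5 past 2-fold in all T cells, 3 had the mark of high levels in barcodes outside the T cells. The median was 1.85, and 1.85 also with Ccl22 set at its lower bound. Ccl4, an inflammatory chemokine, was at 32.1, 0.668 and 37.3 CPM (log2 5.76, 5.12 to 6.58), with 96.0% of its library 3 UMIs in the top 1% of cells. Ccl22, a ligand of CCR4, had 0 UMIs in library 2 and 1119 in library 3, at least 161-fold higher when library 2 is set at 3 counts, and 46.8% of those UMIs sat in 1 cell. Its log2 ratio was 4.63 without the mixed barcodes. Ccl3 and Cxcl10 had log2 ratios of 2.17 and 1.63.

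The second group of genes that differed as a family were the interferon gamma-induced GTPases. Of 9 counted GBPs (10 in the matrix), 8 were at least 2-fold higher and the other, Gbp9, lay just inside at a log2 ratio of 0.99. The median was 1.71. The summed level was 683, 246 and 819 CPM in libraries 1, 2 and 3, a log2 ratio of 1.73 (1.70 to 1.77), and 1.75 without the mixed barcodes. Library 3 exceeded library 1 here, whereas Irf4 and the Nr4a genes were slightly higher in library 1. None of the counted GBPs or IRGs was marked as high in barcodes outside the T cells.

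Gbp2 was at 140.2, 31.2 and 180.5 CPM (log2 2.53, 2.43 to 2.64) and Gbp5, which supports inflammasome assembly, at 48.5, 8.61 and 70.4 CPM (log2 3.03, 2.84 to 3.23). Gbp4 was at 176, 63.5 and 208 CPM (log2 1.71). Gbp10 was scarce, with 9 and 238 UMIs (log2 3.44). The genes lie in 2 clusters of the mouse genome, 5 within 0.144 Mb of chromosome 3 and 5 within 0.280 Mb of chromosome 5, and both clusters were higher, by 1.31 to 3.03 on the log2 scale in the counted genes of the first and 0.99 to 3.44 in the second. GBP genes are close copies of each other, so counting may have split their reads, and values of single members are less sure than the sum.

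Of 8 IRGs, all counted, 7 were at least 2-fold higher, with a median of 1.18 and summed levels of 1051, 466 and 1231 CPM (log2 1.40, 1.37 to 1.43). Gm4951 was at 49.1, 7.86 and 69.0 CPM (log2 3.13, 2.93 to 3.35) and its neighbor on chromosome 18, Iigp1, at 270.4, 78.0 and 356 CPM (log2 2.19, 2.13 to 2.26). The 6 members on chromosome 11 differed less. Their log2 ratios ran from 0.89 for Ifi47 to 1.37 for Tgtp1, with Igtp at 181, 93.3 and 198 CPM (1.08). Tgtp1 and Tgtp2 are near-identical and cannot be separated with confidence.

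Of the factors upstream of these genes, Irf1 was at 214, 116 and 249 CPM (log2 1.10, 1.04 to 1.15). The receptor chains and kinases were not among the higher genes, with Ifngr1 at -0.20 and Jak2 at 0.68. Socs1, an inhibitor of cytokine receptor signaling, had a ratio of 0.83. Of the 10 genes of the interferon gamma pathway 3 were past 2-fold, and 2 of 9 without the mixed barcodes, since Ciita went from a log2 ratio of 1.32 to 0.52. Of those 3, 1 had the mark of high levels in barcodes outside the T cells. Genes typical of type I interferon differed less. Of 21 counted, 2 were past 2-fold, with a median of 0.47, and Isg15 and Ifit1 had ratios of 0.59 and 0.61 while Ifi44 had 1.79 on 11 and 92 UMIs. In the MHC class I pathway 0 of 13 passed 2-fold. Psme2 had a ratio of 0.71, Tap1 of 0.47, B2m of 0.34 and H2-K1 of 0.12.

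**Figure D4:**
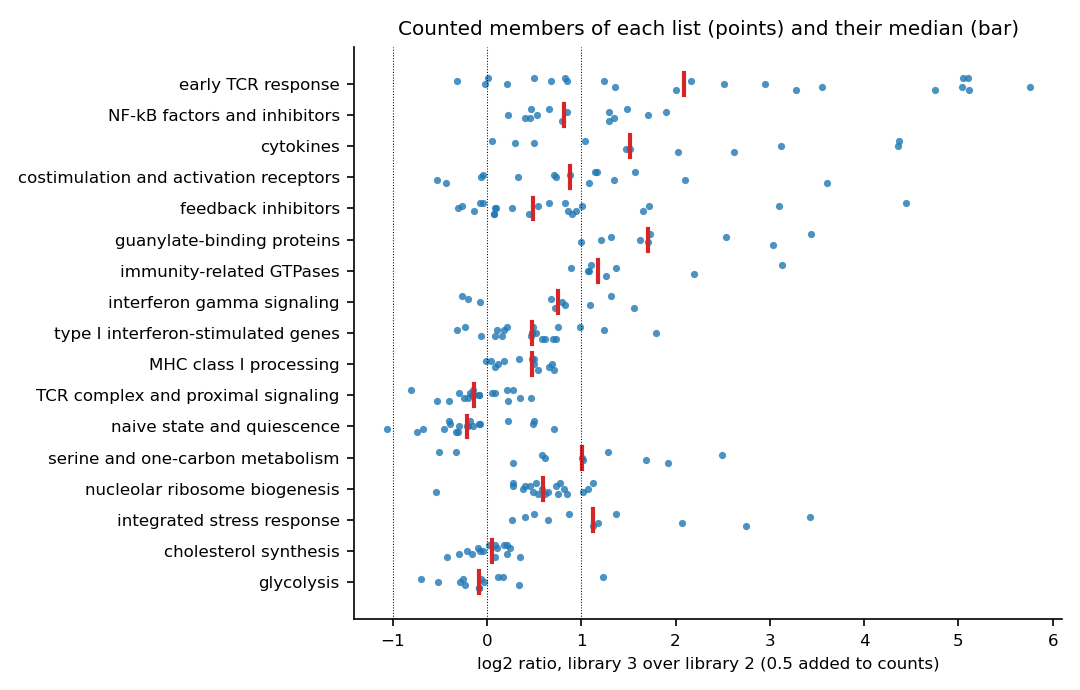
Log2 ratio of library 3 over library 2 for each counted member (points) of 17 gene lists, with the median as a red bar and dotted lines at 0 and at 2-fold. GBPs and IRGs lie at or above 0.89 throughout, and the early T cell receptor genes spread from -0.32 to 5.76. The medians of the naive, glycolysis and cholesterol lists are -0.21, -0.08 and 0.06.

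The share of cells with a UMI differed from gene to gene within both programs. In cells thinned to 1500 UMIs, Iigp1 was detected in 8.25% of library 2 and 26.2% of library 3 cells, and Gbp2 in 4.48% and 18.7%. Il2ra was detected in 0.876% and 10.6%, Irf4 in 0.337% and 9.04%, and Nr4a1 in 0.404% and 7.22%. Without thinning, Iigp1 was in 23.3% and 47.9% of cells and Irf4 in 1.25% and 18.2%. The top 1% of cells held 13.0% of Iigp1 UMIs in library 3, 13.7% of Gbp2, 19.2% of Irf4, 31.1% of Nr4a1 and 95.3% of Il2. Not every interferon-induced gene was widely detected. Gbp5 was found in 7.90% of thinned library 3 cells and Gm4951 in 6.87%, fewer than Il2ra or Irf4, and the top 1% of cells held 21.9% and 26.9% of their UMIs.

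Cells of library 3 with none of the 8 receptor-response genes still had the interferon difference. Among thinned cells with none of the 8, 2893 in library 2 and 5030 in library 3, the GBP sum was 259 CPM in library 2 and 948 CPM in library 3 (log2 1.87, 1.78 to 1.96) and the IRG sum 487 and 1487 CPM (log2 1.61, 1.54 to 1.68). In these cells 7 of 8 counted GBPs and 8 of 8 IRGs were past 2-fold, against 0.542% of all genes. The early receptor list, by contrast, had a ratio of 0.29 (0.22 to 0.36) there, although 7 of its members are at 0 by the choice of the cells, and 0 of 9 counted members passed 2-fold.

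Within library 3 the levels ran in opposite directions across cells. The GBP sum was 948 CPM (926 to 970) in the 5030 cells with none of the 8 genes, 768 CPM (717 to 822) in the 716 cells with 1 or 2, and 235 CPM (199 to 276) in the 428 cells with at least 3. The IRG sum was at 1487, 1051 and 255 CPM in the same classes. Cells with the most receptor-response genes thus had the lowest GBP and IRG sums. For the GBPs this was near the level of library 2 cells with none of the 8 (259 CPM, 244 to 275), whereas the IRG sum of 255 CPM (218 to 298) lay below theirs (487 CPM, 467 to 508). Library 1 showed the same order, with GBP sums of 806, 529 and 205 CPM in 4004, 650 and 413 cells.

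Depth ran the other way. The median UMI count per cell was 8374.5, 9661 and 10804.5 in the 3 classes of library 3, and before thinning a cell held on average 8.29, 7.49 and 2.83 GBP UMIs. The NF-kB sum went the other way, at 1401, 3026 and 6974 CPM, as did Nfkb1 alone at 337, 1241 and 3445 CPM and Cd69 at 39.5, 392 and 1464 CPM. Cd274 was also higher in the cells with at least 3 of the 8, at 316 CPM against 137 CPM in cells with none. The interferon-induced factor Irf1 was at 288, 220 and 121 CPM. The classes were formed from the cells' own values, so these levels are a description.

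The naive list as a whole differed little between these classes, with sums of 16361, 14776 and 13067 CPM in library 3. Larger differences were seen in 3 genes singled out from its 19. Klf2, which keeps T cells quiescent and recirculating, was at 549.5, 291 and 76.3 CPM in cells of library 3 with none, 1 or 2, and at least 3 of the 8. S1pr1, the exit receptor that Klf2 sustains, was at 550.0, 272 and 49.8 CPM, and Il7r, the receptor for the survival cytokine interleukin-7, at 902, 343 and 68.5 CPM.

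**Figure D5:**
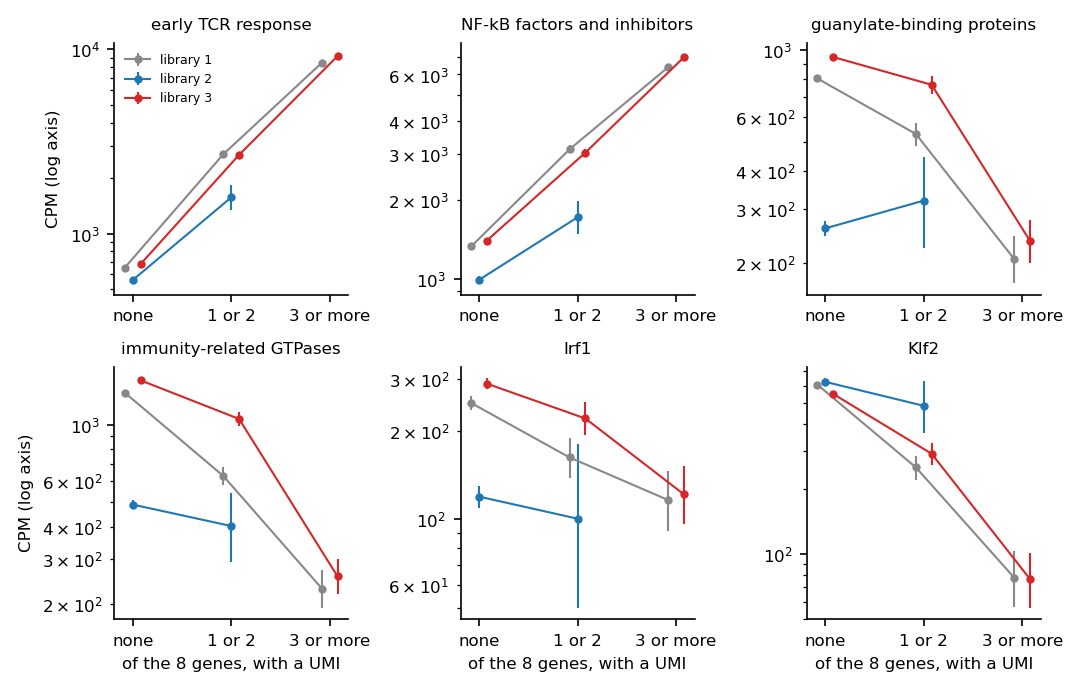
Level in CPM (log axis) of 4 gene lists, Irf1 and Klf2 in T cells thinned to 1500 UMIs, by the number of the 8 receptor-response genes detected in the cell, with exact 95% Poisson bars (counting error only). In libraries 1 and 3 the early receptor and NF-kB sums are highest and GBP, IRG, Irf1 and Klf2 levels lowest in cells with 3 or more; classes under 50 cells, such as the 2 such cells of library 2, are left out.

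The difference between the libraries was also present in classes of cells formed by their Cd4, Trdc or receptor segment UMIs. These UMIs do not settle which receptor a cell carried. Cells with a Cd4 UMI and no Trdc UMI were 1820 (60.0%) of library 2 and 3321 (52.8%) of library 3. In them the early receptor list had a ratio of 1.21 (1.18 to 1.25), the GBP sum of 2.02 (1.97 to 2.07) and the IRG sum of 1.56 (1.53 to 1.60), with 9 of 9 counted GBPs past 2-fold against 2.26% of all genes. Cells with Trdc and no Cd4 UMI, 328 and 676 of them, had ratios of 0.79 (0.72 to 0.86), 1.10 (0.996 to 1.21) and 1.32 (1.23 to 1.42).

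Reads of receptor segments were sparse. Trav14 and Trbv12-1/Trbv12-2 are the segment families of the OT-II receptor. Either was seen in 909 T cells of library 2 (29.97%) and 1346 of library 3 (21.4%). Another Trbv segment alone was seen in 404 (13.3%) and 836 (13.3%). Trav14 made up 10.3% of Trav UMIs in library 2 and 9.89% in library 3. Trbv12-1/Trbv12-2 made up 57.4% and 50.6% of Trbv UMIs. The first class is thus not a sure marker of cells with the OT-II receptor. The early receptor ratio was 1.62 (1.57 to 1.66) in the first and 1.07 (1.003 to 1.14) in the second class. Of the genes counted in each class, 303 (3.02%) and 148 (1.70%) were at least 2-fold higher in library 3. The GBP ratios were 1.69 (1.63 to 1.76) and 1.79 (1.69 to 1.90). At least 1 of the 8 genes was detected, after thinning, in 2.45% and 18.4% of cells of the first class in libraries 2 and 3 and in 3.01% and 13.0% of the second. Cells with both OT-II segments were few. The shares were 1 of 32 (3.13%, 0.0791 to 16.2%) in library 2 and 15 of 46 (32.6%, 19.5 to 48.0%) in library 3. These cells had a median of 8089 and 11568 UMIs, and dendritic cell markers had 0 and 398 UMIs in them. Whether the classes differ was not tested, and Trbv12-1 and Trbv12-2 are near-identical.

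Genes of cell growth were higher in library 3 where they serve amino acids and one-carbon units. Bcat1, which starts the breakdown of branched-chain amino acids, was at 60.1, 2.08 and 49.9 CPM (log2 4.57). The transporter Slc7a5 and the polyamine enzyme Srm had ratios of 1.93 and 1.71, and 6 of 13 genes of nutrient uptake and Myc targets passed 2-fold (median 0.82). Of those 6, 3 had the mark of high levels in barcodes outside the T cells. Of 11 counted genes of serine and one-carbon metabolism 6 passed, with a median of 1.01 and summed levels of 497, 207 and 449 CPM. The same mark was on 1 of these 6. Psat1 (2.49), Shmt2 (1.92), Mthfd2 (1.69) and Phgdh (1.29) form the route from 3-phosphoglycerate through serine to mitochondrial folate. In library 3 this list stood at 241 CPM in cells with none of the 8 receptor genes and at 1544 CPM in those with at least 3.

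Other growth lists moved less. Of 20 nucleolar genes 19 had a ratio above 0 but 3 passed 2-fold (median 0.60), among them Rrp12 at 1.12 and Gnl3 at 1.02. In cholesterol synthesis 0 of 16 passed (median 0.06), and in glycolysis 1 of 13 (median -0.08), Hk2, at 1.23. Among 14 initiation factors 1 passed, the eIF4E-binding protein gene Eif4ebp1 at 1.59. Hk2 and Eif4ebp1 both had the mark of high levels in barcodes outside the T cells. The integrated stress response, which amino acid shortage can switch on, had 6 of 11 past 2-fold and a median of 1.13, with Atf5 at 2.07, Ddit3 at 1.37 and Trib3 at 1.13. The mark of high levels in barcodes outside the T cells was on 3 of those 6. Atf3 had 23 UMIs in library 2, 65.2% of them in 1 cell, and a ratio of 3.42, or 5.49 without the mixed barcodes. Of 18 chaperone genes 0 were at least 2-fold higher and 1 lower, Hspa1b, on 61 and 51 UMIs (log2 -1.47). Without the mixed barcodes 1 of 17 was higher, Hspa9 (1.12), and 0 lower.

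Survival and cell cycle genes differed in a few members. Bcl2l1, which encodes the survival protein Bcl-xL, was at 86.1, 19.8 and 78.5 CPM (log2 1.99, 1.86 to 2.12). Bcl2a1d and Bcl2a1b had ratios of 1.87 and 1.69 but are near-identical copies, and 3 of 11 genes of the Bcl2 family passed 2-fold. Cdkn1a, the p21 inhibitor of the cell cycle, was at 23.4, 3.22 and 21.2 CPM (log2 2.71), the single member past 2-fold among 11 genes of G1 control. Cdkn1a had the mark of high levels in barcodes outside the T cells. No counted proliferation gene was higher. Of 11 such genes 6 were at least 2-fold lower, among them Top2a (18.9 and 6.45 CPM in libraries 2 and 3), but 48.4% of its UMIs in library 2 came from 1 cell, and without the mixed barcodes 0 of 6 counted members passed in either direction. Among 14 S-phase genes 1 was lower, and 0 without those barcodes.

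Of 11 genes typical of regulatory T cells 4 passed 2-fold, Il2ra, Tnfrsf9, Gpr83 (log2 3.42 on 7 and 186 UMIs) and Lrrc32 (1.46), whereas Foxp3 had a ratio of 0.72. The mark of high levels in barcodes outside the T cells was on 2 of those 4. Of 11 genes of the interleukin-2 pathway the 3 past 2-fold were Il2, Il2ra and Cish, and 1 of these 3 had that mark.

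The sum of the naive list was nearly level between the libraries, though most of its genes were somewhat lower in library 3. The 19 listed genes had a summed level of 14473, 15274 and 15433 CPM, a log2 ratio of 0.015. Of the 19, 4 had a ratio above 0, and the median was -0.21, against 0.005 over all counted genes. Klf2 was at 487, 597 and 452 CPM (log2 -0.40, -0.43 to -0.37), Ly6c1 at 268, 476 and 297 CPM (-0.68) and Ccr9 at 35.3, 62.4 and 37.3 CPM (-0.74), all inside 2-fold. Tcf7 and Lef1 had ratios of -0.21 and -0.20. Ccr7, which guides cells into lymph nodes, had the other sign, with 297, 173 and 282 CPM (log2 0.71). One member, Igfbp4, was past 2-fold lower (-1.07), and its ratio was 0.26 without the mixed barcodes.

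The receptor complex and its first signaling steps gave 0 of 19 genes past 2-fold in either direction, with a median of -0.14. Of the 19, 5 are the genes by which the cells were chosen, so their levels are not independent of the choice. Trac stood apart from its partners, with 7570 CPM in library 1, 6614 CPM in library 2 and 3786 CPM in library 3 (log2 -0.80, -0.81 to -0.80), against a log2 ratio of -0.15 for Cd247, the zeta chain, which the rule did not use. Library 3 was here the low library, so Trac did not follow the order of the activation genes. Themis, which tunes receptor signaling, was at 797, 1152 and 801 CPM (log2 -0.52) and Cd4 at 164, 223 and 169 CPM (log2 -0.40).

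Further genes among the 25 with the largest ratios were Lad1, with 1494, 3 and 1497 UMIs (log2 7.53, 6.20 to 10.03), and Mir155hg, the host transcript of the microRNA miR-155, with 156, 16.6 and 139 CPM (log2 3.06, 2.92 to 3.21). Lad1 encodes ladinin, a protein known from basement membranes and the actin cytoskeleton. The zinc finger gene Hivep3 was at 205, 24.5 and 165 CPM (log2 2.75), the potassium channel gene Kcnq5 at 288, 37.6 and 243 CPM (2.69), and the transcript A430093F15Rik at 115, 16.4 and 102 CPM (2.63). Gm35507 had 25 and 409 UMIs (2.79). Akr1c18, Gm15687 and Gm41757 had 1, 1 and 2 UMIs in library 2 and 143, 101 and 102 in library 3, with log2 ratios of 5.37 (3.44 to 11.26), 4.87 (2.93 to 10.76) and 4.14 (2.57 to 7.52). Prg2, a granule protein of eosinophils, had 0 and 162 UMIs, at least 23.3-fold higher with library 2 set at 3 counts, but 98.1% of the UMIs sat in 1 cell.

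The 15 genes with the largest ratios in the other direction rested on few barcodes. They were Ptprb, Kirrel, Lurap1l, Adgrl3, Ankrd1, Rgs17, Dynap, Zfhx4, Nbea, Lmo7, P3h2, Ltbp1, Sema5a, Rai14 and Ank3, genes known from endothelial, epithelial, muscle, nerve or matrix cells more than from T cells. For example, Ptprb had 150 UMIs in library 2 and 15 in library 3 (log2 -4.49), 78.0% of the former in 1 cell, and 6 and 11 UMIs without the mixed barcodes. Kirrel had 180 and 25 UMIs (log2 -4.04) and 2 and 2 without them. Of all 222 lower genes, 138 had most of their library 2 UMIs in 1 cell and 151 fell under the count minimum without the mixed barcodes.

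Of the 34 genes lower without the mixed barcodes, a few were chosen after their values were seen. Gm10076 was at 281, 248 and 59.1 CPM (log2 -2.06 without the mixed barcodes) and Gstp1, a glutathione transferase, at 49.3, 55.9 and 17.8 CPM (-1.64). Here, as for Trac, library 3 stood below both other libraries. Il31ra, a cytokine receptor chain, was at 21.5, 16.3 and 7.82 CPM (-1.02). Gstp1 has a near-identical neighbor, Gstp2, so its reads may be split.

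Markers of other cell types were summed over the T cell barcodes with and without the mixed barcodes. The erythroid sum was 834.5, 61.3 and 1008 CPM, and its ratio went from 4.04 to 0.13 without them, with 4 of 5 and then 0 of 5 counted markers past 2-fold. The fibroblast sum was 121, 218 and 123 CPM, with 7 of 10 counted markers at least 2-fold lower in library 3 and 0 of 4 without the mixed barcodes. Col1a1, the defining collagen gene, had 54 UMIs in library 2 and 6 in library 3. Macrophage and monocyte markers summed to 54.8 and 84.8 CPM in libraries 2 and 3 (0 of 5 past 2-fold), and to 9.35 and 10.6 CPM without the mixed barcodes. Neutrophil markers went from 1.02 and 10.7 CPM (2 of 2) to 0.984 and 2.08 CPM, with 0 left to count, and NK cell markers from 18.3 and 17.4 CPM (0 of 3) to 9.23 and 8.05 CPM (0 of 3). The B cell ratio changed sign, from 0.18 (170.1 and 192.5 CPM, 1 of 5 higher) to -0.33 (171 and 136.5 CPM, 0 of 4). Dendritic cell markers stayed higher in library 3, with 4.56 and 23.6 CPM (2 of 3) and, without the mixed barcodes, 2.01 and 4.72 CPM (log2 1.23, 0.79 to 1.70). The 1 marker still counted, H2-Aa of MHC class II, had 1 and 131 UMIs there (log2 5.25, 3.32 to 11.14). This 1 gene does not tell dendritic cells from other cells with MHC class II. The part of other cell types in the differences was not tested beyond the values without the mixed barcodes.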

How the data were processed

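Droplet single-cell RNA libraries (10x Genomics 5' v2) were measured, and the deposited values are UMI counts per gene and barcode, made by the authors with Cell Ranger 6.0.0 on mm10 per the submitters' processing notes. The file headers name cellranger 7.1.0. Equalisation of depth on aggregation, and the use of intronic reads, are not given in the sources used here. Counts were summed over the T cells of each library (numpy 2.4.6, scipy 1.17.1). Genes under 100 UMIs over both libraries were not counted. Intervals are exact: Poisson for levels, Clopper-Pearson for shares, conditional binomial for ratios. The ratio, call and thinning steps were tested on simulated data. The text names the 25 genes higher and 15 lower whose interval bound nearest 0 was largest, leaving out receptor segment, mitochondrial and ribosomal protein genes and genes with 4 times the CPM in barcodes outside the T cells, and members of the gene lists. The cells compared, the genes and the lists were chosen with earlier results of these data known. Of 32285 gene IDs, 32158 were found in GENCODE M21, which gave positions. Promoters of 61 of 87 genes asked for came from the RefSeq table. TMM factors came from edgeR 4.0.16, and Scrublet was run through scanpy 1.11.5. Values of a few listed genes are not reported here.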

Additional observations from a re-analysis of the deposited data

How the results depend on the processing

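No paired analysis was possible because each side is 1 library and there is no replicate to leave out or to pair. The 2 alternatives without barcodes of mixed origin were chosen after seeing the data. Of the 87 named genes at least 2-fold higher in library 3, all 87 stayed higher and 75 stayed past 2-fold under each of the 13 alternatives that give single genes. The others ranged down to 0.34 for Ciita and 0.38 for Prg2. Of 22 named lower genes, 12 stayed lower and 5 stayed past 2-fold throughout. Scaling moved the median of all genes by under 0.03 in log2. The counts of 358 higher and 222 lower of 12816 genes became 159 and 7 of 9033 with cells thinned to 1500 UMIs. They were 585 and 494 with a minimum of 30 UMIs a gene. The number of genes counted thus changed with the setting, to 11265 in Cd4 cells and 12364 without mixed barcodes. The lower count was 88 with equal weight per cell, 138 with the stricter cell filter, 119 with at least 3 markers, 25 in Cd4 cells, 25 without the highest 6% of UMI totals, 57 without barcodes over 50000 UMIs, 34 without mixed barcodes and 73 with a minimum of 300 UMIs. The early receptor list (1.51) was at 1.30 with equal weight, 1.21 in Cd4 cells, 1.44 without the highest totals, 1.48 without barcodes over 50000 UMIs, 1.47 without mixed barcodes and 1.36 thinned. The GBP list (1.73) was at 1.80, 2.02 and 1.79 under the first 3 of these. The naive list (0.015) was at 0.0267 with TMM scaling, 0.0207 thinned, 0.0046 with the stricter filter, 0.0061 with 3 markers, 0.0048 without the highest totals, 0.0071 without barcodes over 50000 UMIs and 0.0069 without mixed barcodes, and changed sign to -0.0028 in Cd4 cells. The share of cells with 1 of the 8 genes was 4.24% and 23.4% in libraries 2 and 3 at 3000 UMIs and 9.36% and 34.3% unthinned, and in library 3 13.6% in Cd4 cells and 16.98% without the highest totals.

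Several lower genes reversed under some alternatives, and the cause was not tested. Ank3 was at 0.38 with equal weight, and Ankrd1 at 0.31 with the stricter filter and 0.40 with 3 markers. In Cd4 cells the ratios were 0.39 for Ank3, 0.065 for Igfbp4, 0.64 for Nbea, 0.53 for P3h2, 2.85 for Rgs17, 0.85 for Sema5a and 0.60 for Top2a. Without the highest totals they were 1.20 for Ank3, 0.046 for Igfbp4, 0.19 for Lurap1l, 1.32 for Rgs17, 0.10 for Top2a and 0.69 for Zfhx4. Without barcodes over 50000 UMIs they were 0.59 for Ank3, 0.16 for Lurap1l, 0.30 for Nbea, 0.0082 for P3h2, 0.55 for Rgs17, 1.55 for Sema5a and 0.66 for Zfhx4. Without mixed barcodes they were 0.54 for Ank3, 0.26 for Igfbp4, 0.17 for Lurap1l, 0.61 for Nbea, 0.015 for P3h2, 0.56 for Rgs17, 0.33 for Top2a and 0.67 for Zfhx4. Lurap1l was at 0.53 when thinned. Genes with few UMIs in library 2, such as Il2 and Egr2, are limited by depth, and 1 library a side limits every value.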
